A study of Mus musculus with 2 samples.

Results

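The genes described here encode ubiquitin-conjugating enzymes (E2 enzymes, symbols beginning with Ube2) and ubiquitin-specific proteases (symbols of Usp and a number). They were chosen by symbol among the protein-coding genes of the mouse RefSeq annotation, build GRCm38.p6, on chromosomes 1 to 19, X and Y. The rule gave 93 of 21887 genes, 37 Ube2 and 56 Usp. Because it reads symbols only, it also takes in Ube2cbp, named for binding an E2, and Usp6nl, a Rab GTPase-activating protein. Ube2v1 and Ube2v2 are E2 variants that lack the catalytic cysteine.

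Open chromatin was mapped by ATAC-seq, an assay that marks accessible DNA by transposase insertion, in hematopoietic stem cells sorted as CD48-CD150+LSK from the bone marrow of wild-type C57BL/6J mice. One group (control) had been transduced with the empty retroviral vector pMSCV, and the other (H1C) with MSCV-H1C, which overexpresses the linker histone gene H1C, now named H1f2. Each group held 1 library of about 1000 cells, so both groups shared the genotype, the sort and a retroviral transduction. The age and number of the mice, the time after transduction and the share of cells carrying the virus are not stated by the sources used here. The comparison addresses how added linker histone changes open chromatin in these cells, within a study of DEK, replication stress and Fanconi anemia.

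Ubiquitin is activated by an E1 enzyme, passed to an E2 and then attached to a substrate, usually with the help of an E3 ligase. Deubiquitinases, of which the USP proteins are the most numerous family, remove it. In the Fanconi anemia pathway of DNA crosslink repair, UBE2T is the E2 that monoubiquitinates FANCD2 and FANCI, and USP1, bound to its cofactor WDR48, takes that ubiquitin off again. Most genes of both families are expressed in many tissues, and a few, such as the Usp17l copies, Usp26 and Usp9y, are known from restricted settings.

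The sequences below show the promoters to which the results refer, as 250 bases before to 50 bases after a listed transcription start, from RefSeq on GRCm38.p6. Capitals mark matches, on either strand, to the 6 motifs searched. These were CCAAT (the NF-Y box), GGGCGG (the Sp/KLF GC box), CCGGAAGT (ETS factors), TGACGTCA (the cAMP response element), GCGCATGC (NRF1) and TATAAA (the TATA box). No motif contains another, and a match describes letters only. Ube2t is shown as the E2 of crosslink repair, and its region was called in both lists (chr1:134962315-134962614, plus strand, 3 CCAAT).

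Ube2t: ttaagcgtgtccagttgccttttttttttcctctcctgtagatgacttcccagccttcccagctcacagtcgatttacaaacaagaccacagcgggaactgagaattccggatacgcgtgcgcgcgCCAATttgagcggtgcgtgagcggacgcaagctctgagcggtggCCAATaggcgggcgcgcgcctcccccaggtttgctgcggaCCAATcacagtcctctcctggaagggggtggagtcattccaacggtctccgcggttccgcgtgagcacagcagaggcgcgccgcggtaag

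Usp20 is shown as the member with the highest pileup in control, chosen after its values were seen (chr2:30982029-30982328, plus strand, 2 GGGCGG in reverse as CCGCCC and 1 CCAAT in reverse as ATTGG).

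Usp20: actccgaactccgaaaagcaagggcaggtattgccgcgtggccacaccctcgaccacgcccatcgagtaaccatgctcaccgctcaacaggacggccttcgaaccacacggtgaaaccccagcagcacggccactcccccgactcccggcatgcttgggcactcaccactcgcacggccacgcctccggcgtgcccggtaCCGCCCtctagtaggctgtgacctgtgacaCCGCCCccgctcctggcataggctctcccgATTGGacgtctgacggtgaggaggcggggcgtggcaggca

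Ube2l3 is shown as a gene whose region was called in control only and lay on its start site, also chosen after its values were seen (chr16:17201443-17201742, minus strand, 1 TATAAA and 1 CCAAT, both in reverse).

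Ube2l3: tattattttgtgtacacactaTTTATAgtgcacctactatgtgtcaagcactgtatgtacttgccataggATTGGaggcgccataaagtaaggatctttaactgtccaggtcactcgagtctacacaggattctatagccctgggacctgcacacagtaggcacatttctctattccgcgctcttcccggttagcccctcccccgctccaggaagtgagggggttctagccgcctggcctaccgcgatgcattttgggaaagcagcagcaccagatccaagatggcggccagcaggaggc

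Ube2b and Usp49 had the strongest control-only regions of their families. The listed start of Ube2b (chr11:52000737-52001036, minus strand, 1 TGACGTCA) lies inside the gene, and the promoter of Usp49 (chr17:47630440-47630739, plus strand, 1 CCAAT in reverse) begins downstream of its control region.

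Ube2b: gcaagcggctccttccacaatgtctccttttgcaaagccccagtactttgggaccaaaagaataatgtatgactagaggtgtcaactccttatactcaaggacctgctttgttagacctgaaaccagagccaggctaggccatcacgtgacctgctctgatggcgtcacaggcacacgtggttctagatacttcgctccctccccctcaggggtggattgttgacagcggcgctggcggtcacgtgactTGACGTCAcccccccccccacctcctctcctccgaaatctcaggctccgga

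Usp49: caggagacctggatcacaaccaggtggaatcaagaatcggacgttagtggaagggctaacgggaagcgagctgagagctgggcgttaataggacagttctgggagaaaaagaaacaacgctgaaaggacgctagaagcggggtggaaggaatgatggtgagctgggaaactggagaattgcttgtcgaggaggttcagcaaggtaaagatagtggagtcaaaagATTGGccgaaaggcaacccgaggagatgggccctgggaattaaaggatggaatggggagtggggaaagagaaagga

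Accessible regions were called by the authors for each library separately, giving 32005 entries in control and 13156 in H1C. A gene had a gene-end region when an entry lay within 1000 bp of either end of the gene. The lists hold no read totals. Further quantities were recovered from the fold and −log10 p of each entry: its pileup, meaning the reads or fragments stacked at the summit, and its local background. The lowest local background of a list, which scales with depth, stood at 3.99 in control and at 4.40 in H1C, 1.10 times as high. The shorter H1C list was thus not the shallower by this measure. Local backgrounds at shared summits gave a ratio of 0.864 instead. With 1 library per group there is no replicate check and no test. The 95% intervals below cover counting error only, and amplified reads are not independent molecules. A region open in fewer cells and one less open in every cell cannot be told apart in bulk libraries. Of 10 hematopoietic stem cell markers, 5 had a gene-end region in control (Hlf, Kit, Ly6a, Meis1 and Slamf1) and 0 in H1C. These regions were weak, and 18.6% of other genes of like control strength had a region in H1C. The defining markers Procr, Mecom and Fgd5 had one in neither. Of 7 myeloid markers, Cebpa and S100a8 had a region in both libraries and Itgam in control only (other genes of like strength 21.8% kept). Of 7 lymphoid markers, Cd79a had one in both and Cd3e, Cd48 and Il7r in control only (42.2%). Among the 4 erythroid, 4 endothelial or stromal and 3 non-hematopoietic markers, regions in control numbered 1, 2 and 2, and in H1C 0. Of other genes of like strength, 10.3% were kept in each case. A control gene-end region was present at 46.9% of all protein-coding genes. The part of cell makeup in the results below was not tested.

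Most Ube2 and Usp genes had an open gene end in control, and most of those were also called in H1C at a lower pileup. A control gene-end region was present at 66 of 93 genes (71.0%, exact Clopper-Pearson 95% interval 60.6 to 79.9), against 46.9% of all protein-coding genes. Of these 66, 54 were kept, meaning that H1C also had a gene-end region (81.8%, interval 70.4 to 90.2), against 71.0% of all genes with a control region. The remaining 12 were called in control only (18.2%, against 29.0%). No gene was called in H1C only, against 0.288% of all genes, and 27 had a region in neither list (29.0%, against 52.8%). The members were thus called more often than genes at large, and they were also stronger in control. The comparison within bins below takes strength into account for the kept share only, since the bins hold only genes with a control region.

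The families differed more in how many genes were called than in how many of those were kept. Among Ube2 genes, 30 of 37 had a control region (81.1%, interval 64.8 to 92.0) and 24 of the 30 were kept (interval 61.4% to 92.3%). Among Usp genes, 36 of 56 had one (64.3%, interval 50.4 to 76.6) and 30 of the 36 were kept (83.3%, interval 67.2 to 93.6). The intervals of the families overlap for both shares. The Usp family holds 20 of the 27 genes in neither list, 5 of them Usp17l copies.

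**Figure D1:**
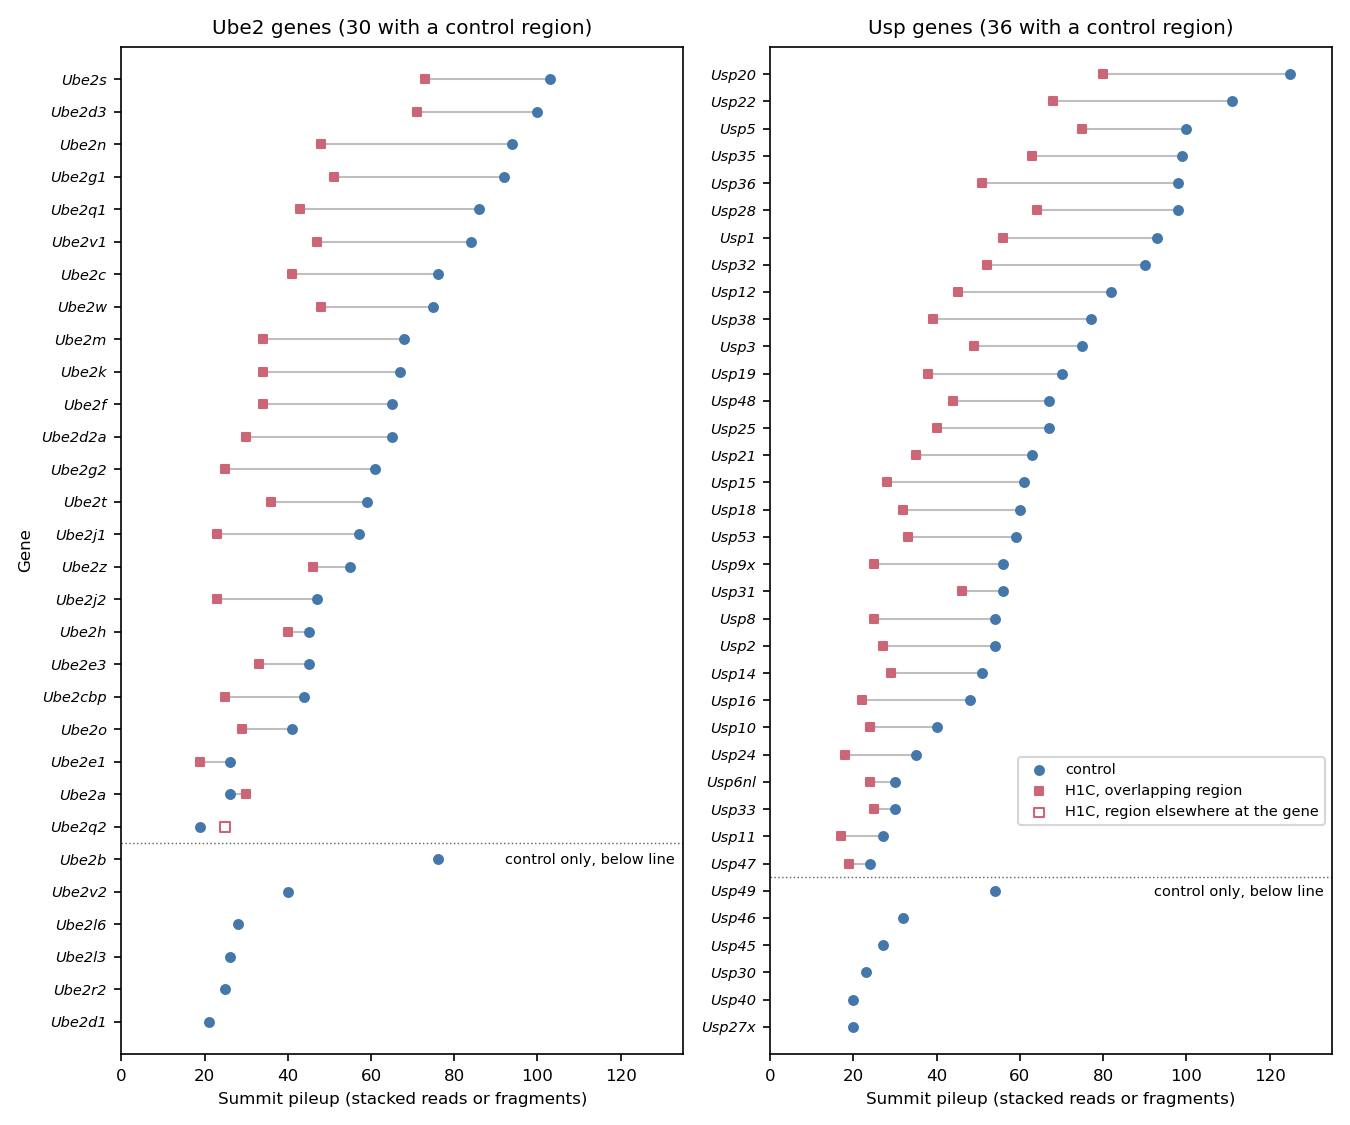
Summit pileup, in stacked reads or fragments, at each Ube2 (left) and Usp (right) gene with a control gene-end region. Circles are control and squares are H1C, open where the H1C region lies elsewhere at the gene, with 1 library each; H1C squares lie to the left of the control circles at all kept genes except Ube2a and Ube2q2, and the 12 control-only genes have no square.

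Ube2t and Usp1, the E2 and the protease of crosslink repair, were both kept. At Ube2t, control had a pileup of 59 and H1C one of 36, a depth-scaled log2 ratio of -0.85 (95% counting interval -1.49 to -0.23). The control region, at chr1:134962373-134962729, spans the listed start, and its summit lay at -24 bp from it (negative values are upstream). The fold over local background was 10.5 in control and 6.85 in H1C. Its widths were 357 bp (control) and 412 bp (H1C), and Ube2t, Usp1, Ube2a and Usp32 were the 4 members whose H1C region was not narrower. Usp1 had a wide region at chr4:98923002-98924036, of 1035 bp in control and 1084 bp in H1C. The pileups of Usp1 were 93 and 56, a log2 ratio of -0.87 (interval -1.38 to -0.38), and its fold was 8.90 and 6.33. Both ratios lay near the median of other kept genes, -0.85.

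The other E2 genes of damage tolerance were split between the lists. UBE2N and its partners UBE2V1 and UBE2V2 build K63-linked chains, while UBE2A and UBE2B work with RAD18 on PCNA. Ube2n had a pileup of 94 in control and 48 in H1C, a log2 ratio of -1.11 (interval -1.64 to -0.60). Ube2v1 had 84 and 47, a ratio of -0.98. Ube2a was the one member whose ratio was above 0, with a pileup of 26 in control and 30 in H1C (0.06, interval -0.74 to 0.88). Its interval spans 0, and its control pileup was among the lowest of the kept genes. Ube2b and Ube2v2 were called in control only, so 4 of these 6 genes were kept, against 83.4% of other genes in the same strength bins. At a listed start inside the gene, however, Ube2b had a region in both lists, with a pileup of 72 in control and 36 in H1C.

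The E2 genes of the anaphase-promoting complex had strong regions in both libraries. Ube2s, which extends K11-linked chains, had the strongest region of the Ube2 family, with a pileup of 103 in control and 73 in H1C (log2 ratio -0.64, interval -1.09 to -0.19). Ube2c, which starts the chains, had 76 and 41 (-1.03, interval -1.62 to -0.47). Both were kept, against 99.6% of other genes of that strength.

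Of 10 E2 genes of broad use, which serve many E3 ligases, 6 were kept, 2 were called in control only and 2 in neither. Of other genes in the bins of the 8 with a control region, 65.3% were kept. Ube2d3 had the widest region of any member, 1700 bp in control and 1682 bp in H1C, and a pileup of 100 in control and 71 in H1C (log2 ratio -0.64). Ube2w, which ubiquitinates N termini, had the highest fold of any member in control, 12.7, with a pileup of 75 in control and 48 in H1C (-0.79, interval -1.34 to -0.24). Ube2h had a pileup of 45 and 40 (-0.31, interval -0.96 to 0.34), the second-smallest change of the family. Ube2d1 and Ube2l3, the E2 that Parkin and HOIP use, were the control-only genes of the group. Ube2d2b and Ube2e2 were called at neither library's gene ends.

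Genes for E2 enzymes of ER-associated degradation included the 2 lowest ratios of the family. Ube2j1, a membrane-bound E2 of that pathway, had a pileup of 57 in control and 23 in H1C (log2 ratio -1.45, interval -2.22 to -0.73). Ube2g2 had 61 and 25 (-1.43, interval -2.16 to -0.74). Ube2g1 had a stronger region, 92 in control and 51 in H1C (-0.99, interval -1.52 to -0.48), and the intervals of the 3 genes overlap. These genes were grouped with E2 genes of K48-linked chains, among them Ube2k. Of the 6 genes of this combined group, 5 were kept, Ube2j2 and Ube2k included, and Ube2r2 was called in control only. Of other genes in the same bins, 80.6% were kept. The median ratio of the 5 kept genes was -1.17.

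Among E2 genes for ubiquitin-like proteins, those of NEDD8 were kept. Ube2f had a pileup of 65 in control and 34 in H1C (log2 ratio -1.08). Ube2m had 68 and 34 (-1.14), at summits 434 bp apart. Ube2l6, the ISG15 E2, was called in control only. Among the remaining E2 genes, Ube2q1 had the strongest region, with 86 in control and 43 in H1C (-1.14). Ube2q2 had regions in both libraries at different places, with a pileup of 19 in control and 25 in H1C, so no ratio was formed.

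Among Usp genes with roles in crosslink repair, damage tolerance or p53 control, all 7 with a control region were kept, against 67.6% of other genes in the same bins. Beside Usp1, Usp28 had the strongest region of these, with a pileup of 98 in control and 64 in H1C (log2 ratio -0.76, interval -1.23 to -0.29). Usp10, Usp11, Usp24, Usp47 and Usp48 ranged from 24 to 67 in control and from 17 to 44 in H1C. Several of these kept genes were weak, since Usp47 had 24 in control and Usp11 27. Usp7, the protease of MDM2 and p53, Usp29 and Usp42 had no region at their gene ends.

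Usp genes that act on histone H2A or H2B gave 5 kept genes of 7 with a control region (71.4%), against 84.4% of other genes in the same bins. Usp22, the H2B protease of the SAGA complex, had a pileup of 111 in control and 68 in H1C (log2 ratio -0.85, interval -1.31 to -0.40). Usp36, a nucleolar protease, had 98 and 51 (-1.08, interval -1.60 to -0.58). Usp16, which removes ubiquitin from H2A, had 48 and 22 (-1.27, interval -2.07 to -0.51), the second-lowest ratio of the family. Usp27x, a relative of Usp22, and Usp49 were called in control only, and Usp44 and Usp51 in neither. The call of Usp49 turned on the window edge, since an H1C entry overlapped its control region but ended 2 bp outside the window.

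Usp20 had the strongest region of all members, with a pileup of 125 in control and 80 in H1C (log2 ratio -0.79, interval -1.21 to -0.37). The region, at chr2:30981767-30982467, covers the promoter printed above and is shared with the neighbouring gene BC005624. Usp5, which disassembles free ubiquitin chains, had 100 and 75 (-0.56, interval -1.01 to -0.11). Usp35 had 99 and 63 (-0.79), and Usp32, a large membrane-associated protease, 90 and 52 (-0.93). Usp18, the protease of ISG15, had 60 and 32 (-1.05, interval -1.72 to -0.41).

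The ends of the range within the Usp family overlap once counting error is included. Usp9x, an X-linked protease, had the lowest ratio, with a pileup of 56 in control and 25 in H1C (log2 ratio -1.31, interval -2.05 to -0.60). Its control region, 1379 bp wide, was overlapped by separate H1C entries of 390 and 288 bp, the wider of which gave the ratio. Usp33 had the highest ratio, with 30 and 25 (-0.41, interval -1.23 to 0.41), and Usp31 followed with 56 and 46 (-0.43, interval -1.02 to 0.16).

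**Figure D2:**
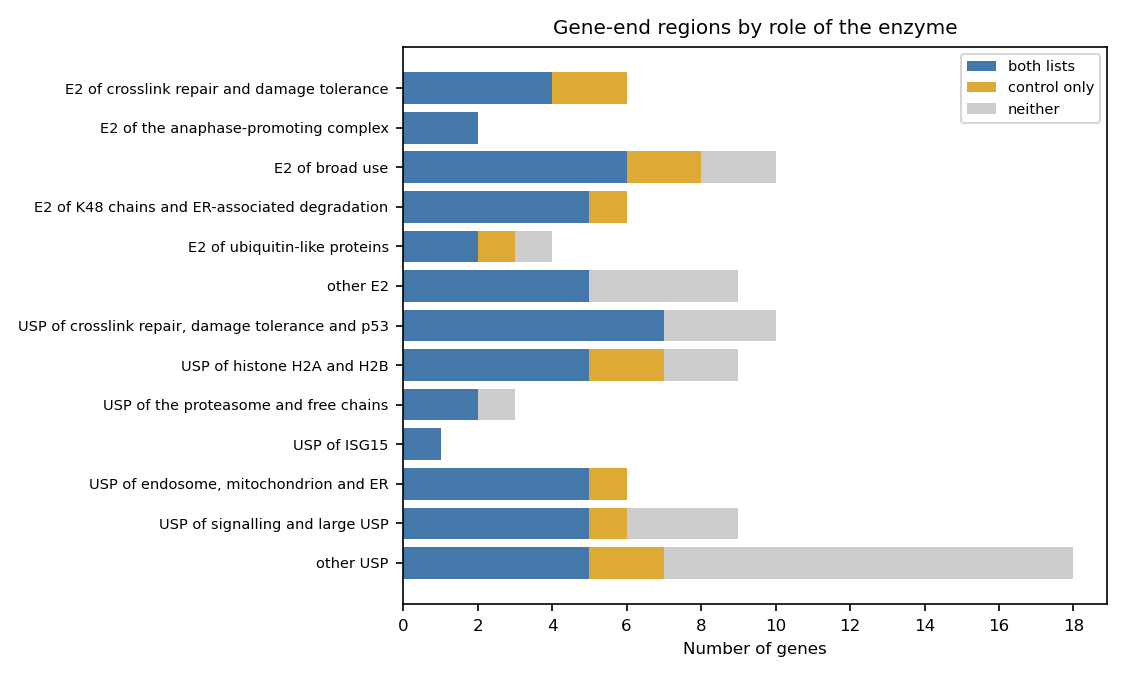
Number of Ube2 and Usp genes in each role group by where a gene-end region was called: in both lists, in control only or in neither, with 1 library per condition. The role groups kept between 2 of 3 and all of their control regions, and the group of other Usp genes holds 11 of the 27 genes with none.

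The 12 control-only genes were mostly weak in control, and 3 of them had an H1C region just outside the window or at another start of the gene. Usp49 had a pileup of 54 in control at chr17:47628995-47629761, with a fold of 7.99. H1C had an overlapping entry with a pileup of 23 and a fold of 4.30, which ended 2 bp outside the 1000 bp window. Ube2b had a pileup of 76 in control at chr11:52004075-52004433 and a fold of 7.16, and 96.9% of other genes of that strength were kept. No H1C region was called there. Inside the gene, at the listed start printed above, Ube2b had a second region with a pileup of 72 in control and 36 in H1C. Usp45 likewise had a region at a listed start inside the gene, with 46 in control and 18 in H1C.

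For the other 9 genes (Ube2d1, Ube2l3, Ube2l6, Ube2r2, Ube2v2, Usp27x, Usp30, Usp40 and Usp46), control pileups ran from 20 to 40 with a median of 25. Their folds ran from 3.59 to 6.997, and 25.3% of other genes in the same bins were kept. Ube2v2, the K63-chain E2 variant, was the strongest of the 9, with a pileup of 40, a −log10 p of 23.4 and 83.6% of other genes of that bin kept. Usp46, a WDR48-bound protease, followed with a pileup of 32. Ube2l6 had 28, Ube2l3 26 and Usp30, a mitochondrial protease, 23. The lowest H1C pileup of any kept member was 17 and the lowest of the whole list 14.

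Of the 27 genes with no gene-end region in either list, 10 had a control entry inside the gene, and in 7 of those an H1C entry overlapped it. Entries inside genes were not counted over other genes, so these counts have no share to be set against. Usp34, a large protease of Wnt signalling, had 99 in control and 54 in H1C at an entry whose summits lay at -442 bp from a listed start inside the annotated span. Usp37, which acts in cell cycle and replication, had 94 and 55, with summits at -100 and -73 bp from a listed start. Usp4 had 61 and 27, and Usp42 had 73 and 39. Usp29 and Usp54 were also among the 7. Usp7 had 55 in control at -643 bp from a listed start and no entry in H1C. Usp17le had an H1C entry alone, with a pileup of 19.

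No entry at either end or inside was present in either list at 16 genes. They were Ube2d2b, Ube2dnl1, Ube2dnl2, Ube2ql1, Ube2u, Usp13, Usp17la, Usp17lb, Usp17lc, Usp17ld, Usp26, Usp39, Usp43, Usp50, Usp51 and Usp9y. The Usp17l genes are near-identical copies of each other, so their assignment of reads is uncertain. Usp9y lies on the Y chromosome and the sex of the mice is not stated. Counting ends and bodies together, 76 members had a control entry and 65 of these an H1C entry, again without a count over other genes.

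Stronger control regions were kept more often, among members and among other genes. All genes with a control region were put in 10 bins of equal number by the control −log10 p. Weighted to the members' bins, 77.4% of other genes were kept, 4.44 percentage points below the members' 81.8%. The gap was 3.63 points for Ube2 and 5.11 for Usp genes, in each case well inside the counting interval of the members' share. In the 5 weaker bins, 14 of 24 members were kept (58.3%), against 45.2% of other genes. In the 5 stronger bins, 40 of 42 were kept (95.2%), against 96.8%, and the 2 exceptions were Ube2b and Usp49. In the strongest bin all 13 members were kept, against 99.8% of other genes.

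**Figure D3:**
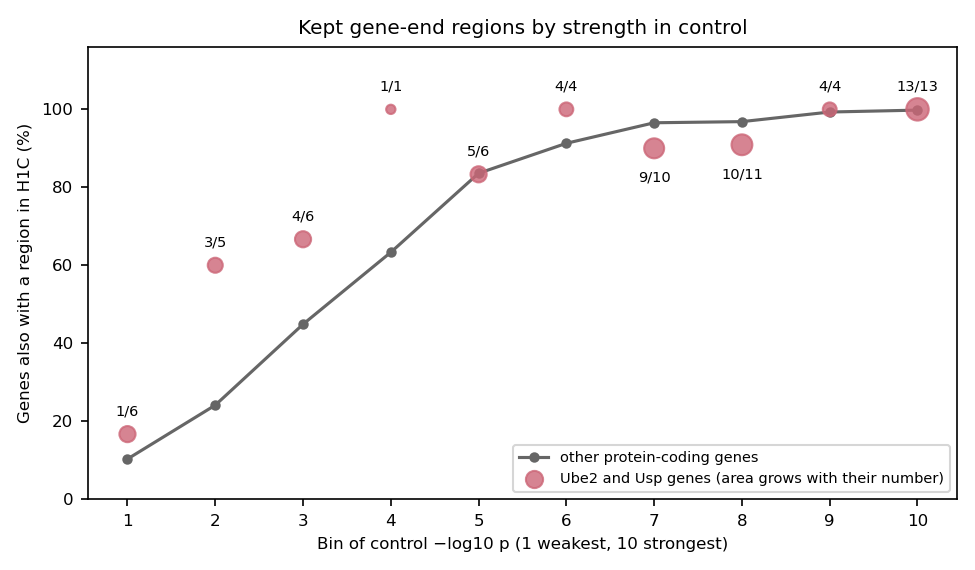
Share of control gene-end regions kept in H1C, in percent of genes, by bin of control −log10 p from 1 (weakest) to 10 (strongest). The line is other protein-coding genes and the circles are Ube2 and Usp genes, with area growing with their number; the members' share was 1 of 6 in the weakest bin and 13 of 13 in the strongest, on a line that runs from 10.3% to 99.8%.

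The authors' values per region were compared within each list. In control, the median fold was 7.73 at members and 6.80 at other genes, the median −log10 p was 35.2 and 27.1, and the median −log10 q was 31.5 and 23.7. Members' regions were also wider (median 592 against 542 bp), with a higher pileup (58 against 49) and a summit farther from the region's start (269 against 227 bp). The H1C medians cover fewer genes, the 54 members and 7297 other genes with an H1C region. They nearly met, with a fold of 5.45 and 5.25, a −log10 p of 16.3 and 16.2, a −log10 q of 12.7 and 12.6 and a pileup of 34.5 and 35. Among kept genes alone, the control medians of members and other genes were already closer. Their fold was 8.00 and 7.75, their −log10 p 38.4 and 34.8 and their pileup 62 and 58. The H1C regions of members remained wider (456 against 400 bp) and their summit offset larger (197 against 177 bp). Control-only members had a median fold of 4.45, a −log10 p of 11.4, a width of 422.5 bp and a pileup of 26.5. The corresponding medians of other control-only genes were 4.61, 12.2, 341 bp and 28.

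A ratio of pileups could be formed at 53 kept members whose regions overlapped. Their depth-scaled log2 ratios (H1C over control) had a median of -0.96, with quartiles of -1.11 and -0.75 and a range of -1.45 to 0.06. The ratio was below 0 at 52 of the 53, against 7127 of the 7174 ratios formed over all protein-coding genes. The counting interval lay below 0 at 42 (79.2%), against 77.1% of all kept genes, and above 0 at none, against 0.00%. The median was -0.98 for the 23 Ube2 genes, -0.91 for the 30 Usp genes and -0.85 for the 7121 other genes. Against the median of other genes in its own bin, a member was lower in 32 of 53 cases, with a median difference of -0.08. Scaled by local background instead of genome background, the members' median was -0.60. Every ratio and interval moves upward by the same amount under that scaling. The counts and shares below 0, of members and of all genes, and the intervals of single genes hold for genome background only. They were not made with local background.

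**Figure D4:**
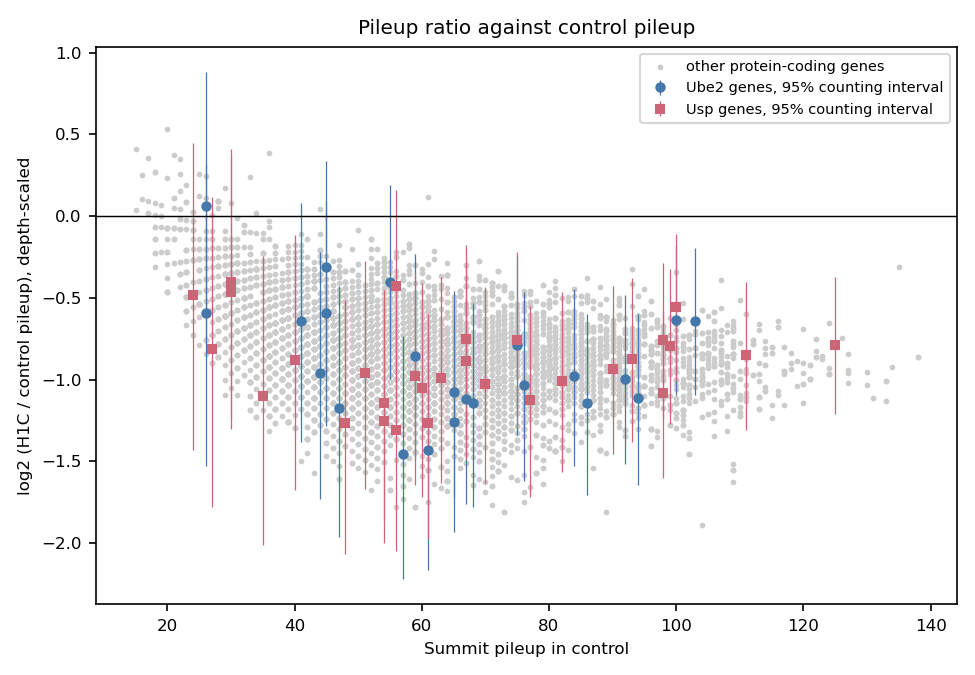
Depth-scaled log2 pileup ratio (H1C over control) against control pileup, for 53 Ube2 and Usp genes and, in grey, 7121 other kept genes. Bars are 95% counting intervals from 1 library per group. Below 0 lie 52 members and 7075 of the other genes, and Ube2a, at a control pileup of 26, lies just above it.

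Most regions lay at transcription starts and kept their position. The promoter table gave a strand for 73 members, and 52 of these had a control region. The strongest region lay at the 5′ end for 51. For Usp21 it lay at the 3′ end, shared with the gene Ppox, and a second Usp21 region at the 5′ end had a pileup of 47 in control and 33 in H1C. The control summit lay within 200 bp of a listed start for 40 of the 52, with a median of -57 bp. The counts at the 5′ end and near a start were not made over other genes. Regions were taken by lying within 1000 bp of a gene end, so these counts describe members only. Between the libraries the summits used lay at most 100 bp apart at 49 of 53 overlapping regions, with a median of 32 bp and a maximum of 434 bp, at Ube2m. That maximum reflects the choice of entry, since a weaker H1C entry of Ube2m, with a pileup of 30, had its summit nearer the control summit. Summit distances between the libraries were likewise not counted over other genes. The H1C region was narrower at 49 of 53 (other genes 91.4%), with a median width ratio of 0.814 against 0.710 at other genes. At Ube2m, Ube2q1 and Usp9x a pair of H1C entries overlapped the control region, and the stronger was used. A control region shared with the end of another protein-coding gene was found at 8 of 66 members (12.1%), against 28.7% of other genes. The 8 were Ube2k, Usp5, Usp19, Usp20, Usp21, Usp32, Usp35 and Usp45.

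Read at listed transcription starts instead of gene ends, 46 of 73 members had a region in both lists, 10 in control only, 0 in H1C only and 17 in neither. Of 17419 other genes, 6219 had a region in both lists, 2321 in control only, 22 in H1C only and 8857 in neither. The kept share was then 82.1%, against 72.8% of other genes without regard to strength and 76.5% in the same strength bins.

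The promoter sequences of kept members were rich in CpG. The median CpG count in 300 bases was 30 at 41 kept members, 19 at 11 control-only members and 7 at 21 members in neither list. The medians over all promoters of the same classes were 23, 17 and 4. The GGGCGG box was present in 80.5% of kept members' promoters, against 71.5% of all kept promoters, and in 65.8% of all members' promoters against 46.7% of all promoters. CCAAT was present in 19.5% of kept members' promoters, against 43.2% of all kept promoters, so Ube2t, with 3 copies, belongs to the smaller set of 8 kept members that hold it. Among members in neither list, CCAAT was present in 57.1%, against 38.1%. Over all members, CCGGAAGT was in 8.22% of promoters (all genes 5.31%), TGACGTCA in 4.11% (2.36%), GCGCATGC in 4.11% (3.62%) and TATAAA in 11.0% (13.3%). In the printed promoters, Ube2t and Usp20 hold 28 CpG each, and the control-only genes Ube2b, Usp49 and Ube2l3 hold 12, 11 and 10. The latter lie at the low end of the control-only members, whose counts ran from 10 to 39. The printed start of Ube2b had a region in both lists, and the printed Usp49 promoter lies outside its control region.

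**Figure D5:**
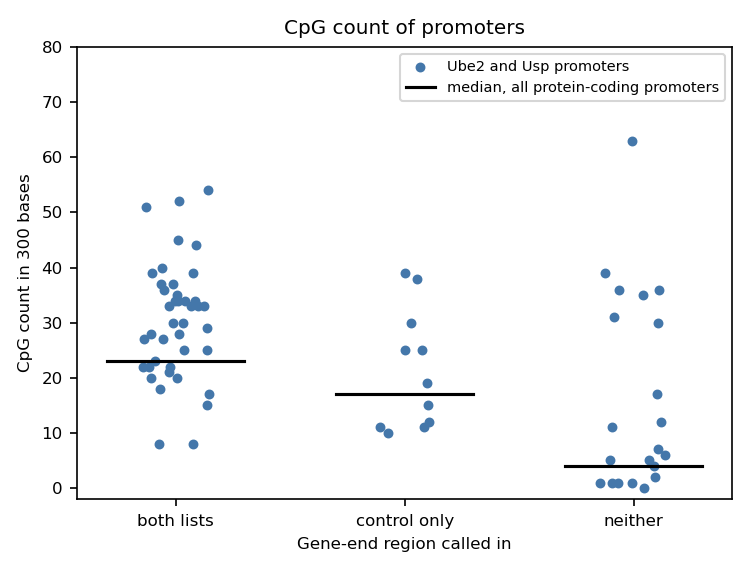
CpG count in the 300-base promoter of each of 73 Ube2 and Usp genes, by whether a gene-end region was called in both lists, in control only or in neither. Points are genes and black bars the median of all protein-coding promoters of the class; the members' medians are 30, 19 and 7, against bars at 23, 17 and 4.

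The rest of the pathway was described from lists of 73 matched genes, of which 62 had a control region, 50 were kept, 0 were called in H1C only and 11 in neither. Of all protein-coding genes, 46.9% had a control region, and 71.0% of those were kept. Ubiquitin and ubiquitin-like genes were kept at 10 of 11, against 82.2% of other genes in the same bins. Among them was the polyubiquitin gene Ubb, with a pileup of 78 in control and 51 in H1C. E1 genes were kept at 5 of 10, against 61.5% of other genes in the same bins. Uba3, of the NEDD8 E1, had 94 and 50, and Uba6, a ubiquitin E1, 76 and 57. Uba1, the main ubiquitin E1, had 32 and 28, while Mocs3, Nae1, Sae1 and Uba7 were among those called in control only. Of the USP1 partners and ligases of crosslink repair and damage tolerance, 6 of 9 were kept, against 80.1% of other genes in the same bins. Wdr48, the USP1 cofactor, had 56 and 46 (log2 ratio -0.43), and Fancl, the Fanconi anemia E3, had 56 and 29 (-1.09). Atad5, Rad18 and Rnf168 were called in control only. Deubiquitinases of other families were kept at 24 of 27, against 84.5% of other genes in their bins, and all 5 E2 genes with other names that had a control region were kept, against 96.9%.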

How the data were processed

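Both libraries came from sorted mouse stem cells, 1 per group, and groups followed the treatment labels. Per the submitters' processing notes, mm10 was the build, and MACS2, featureCounts, Picard, Bowtie2 2.2.9 and Trim Galore 0.4.4 were used. Settings, duplicate removal and read shifting, none of them given in the sources used here, would alter pileups and summits. Regions had been called per library.

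In the deposited lists, the fold is a ratio of summit pileup to local background, after adding 1 to both. The authors' caller gave −log10 p and −log10 q, the latter at least 1.31 (control) or 1.34 (H1C). For 99.97% (control) and 99.96% (H1C) of entries, the deposited score was −log10 q times 10 without its decimals. The other deposited value, the summit offset, counts bp from a region's start.

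Pileup and background were solved numerically, the −log10 p being a Poisson tail. The pileup was whole within a relative tolerance of 0.0001 for 32005 of 32005 and 13156 of 13156 entries, and the solver recovered 100% of 1954 simulated entries. Each gene's entry with the highest −log10 p was used. The H1C pileup was that of an overlapping entry. Ratios were depth-scaled by the genome backgrounds and have exact conditional binomial intervals. The gene table gives gene ends without strand, so strand and starts came from the promoter table, which matched 73 members.

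The members, lists and rule for named genes were chosen with earlier results of these data known. The rule named Ube2t and Usp1. For each family it named the 4 strongest kept and 4 strongest control-only genes, and the 2 highest and 2 lowest ratios. For each role it named the strongest kept and control-only gene. Genes beyond it were named after their values were seen. Some genes of these lists are not reported here. Alternatives changed the window, threshold, gene end, bins and scaling. Software was scipy 1.17.1, pandas 2.3.3, numpy 2.4.6 and matplotlib 3.10.9 under Python 3.11.15.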

Additional observations from a re-analysis of the deposited data

How the results depend on the processing

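Over 67 alternatives for 6 results, 62 left the value within its bounds, 5 moved it and 0 reversed it. The bounds were 1.5 times a count and the counting interval for the kept share and its gap. For the median log2 ratio they were the quartiles across members, which are not a counting interval. With the control list cut to the length of the H1C list, the kept share was 91.1%, against 88.5% of other genes in the same bins. Under that cut, 3 genes were in H1C only (Ube2e1, Ube2q2 and Usp47). A stricter −log10 q minimum of 5 for both libraries gave 1 such gene (Ube2q2). Genes in H1C only were not counted over other genes under these settings, so the counts have no share to be set against. Read at any listed transcription start, an alternative chosen after the data had been seen, 17 of 73 members were in neither list. Scaled by local background, the median log2 ratio was -0.60. Otherwise the kept share ran from 76.6% to 83.1%. The gap to other genes in the same bins ran from 1.45 to 6.20 percentage points, with members always the higher. No paired analysis was possible because there was a single library per group. The lowest pileup called was 14 in H1C, which limits what its list can show of weak regions.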
